A study of Drosophila melanogaster with 30 samples.

Results

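The genes described here serve the Malpighian tubules, the renal organs of the fruit fly, and were chosen as 8 named genes for transporters, channels, diuretic hormone receptors and urate oxidase. In the platform annotation, 6 of the 8 are the single gene symbol of a probe set, with 1 probe set each among the 15309 on the array. They are salt (probe set 18200555), Irk2 (18199011), Irk3 (18143783), Dh31-R (18163228), Dh44-R2 (18150343) and Lkr (18176482). CapaR and Uro have no such probe set and were not analysed here.

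RNA came from adult virgin male Drosophila melanogaster of a laboratory stock founded from field-caught flies, on 30 arrays in 10 groups of 3. By their labels, all groups share that stock, sex and mating state, and differ in whether flies developed on rich or poor food in up to 3 successive generations. F0 flies were raised rich (F0-Rich, written R) or poor (F0-Poor, P). F1 groups give the food of the parents and then the flies' own food: F0-Rich_F1-Rich (R-R), F0-Rich_F1-Poor (R-P), F0-Poor_F1-Rich (P-R) and F0-Poor_F1-Poor (P-P). F2 groups all had rich-raised F1 parents: F0-Rich_F1-Rich_F2-Rich (R-R-R), F0-Rich_F1-Rich_F2-Poor (R-R-P), F0-Poor_F1-Rich_F2-Rich (P-R-R) and F0-Poor_F1-Rich_F2-Poor (P-R-P). The labels name no dissected tissue, no fly age, no recipe of either food and no number of flies per array. Nor do they say whether the 3 arrays of a group stand for separate cultures. The p-values below therefore reflect the variation among these arrays, part of which may be technical.

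The tubule secretes a primary urine. Its principal cells carry a proton pump, the V-ATPase, in the apical membrane, and the gradient it makes drives potassium and sodium into the lumen, while chloride and water pass largely through or beside the stellate cells. Inward-rectifier potassium channels of the Irk family let potassium enter principal cells from the blood side. Secretion is raised by peptide hormones: Dh31 and Dh44 act through receptors that raise cyclic AMP in principal cells, Capa peptides through a receptor that raises calcium there, and leucokinin through its receptor on stellate cells. Urate oxidase breaks down uric acid and is a classical tubule-specific enzyme of adult flies.

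Values are the authors' GCRMA expression values, read as log2, and array medians over all probe sets lay between 0.82 and 0.94. Of the 30 arrays, 4 stood apart in markers of other tissues. The mean of 19 ovary and yolk genes was 3.63 on R-P replicate 2 and 3.47 on P-R-R replicate 2, against 0.44 to 0.62 on the 28 others. Such readings are at odds with the male label of these 2 arrays, and their source was not tested. Replicates 1 and 3 of R-R read 1.84 and 1.85 as the mean of 9 cuticle genes, against 2.88 to 4.73 on the 28 others. All 4 were kept under their labels, and results that rest on them are also given without them.

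Of the 6 genes, 5 read above the median of the array on all 30 arrays. Lkr, the leucokinin receptor gene, read below it on all 30, between 0.13 and 0.75. The lowest, median and highest values over the 30 arrays were 1.68, 2.44 and 3.97 for salt, 1.80, 2.60 and 3.17 for Irk3 and 1.90, 2.44 and 2.84 for Dh31-R. They were 1.5, 1.78 and 2.32 for Irk2 and 1.30, 1.78 and 2.26 for Dh44-R2. These ranges describe each probe set by itself, since levels of different probe sets cannot be ranked against each other. Of 6 genes listed as marks of tubule identity, the tubule alkaline phosphatase gene Alp4 had a mean level of 2.42 and Hnf4 one of 2.25. The others, ct, tsh, tio and GATAe, lay between 0.80 and 1.10, close to the array medians. The list averaged 1.24 to 1.60 across the arrays. The labels name no tissue, so the values of these genes cannot be assigned to the tubules. Lists of testis genes (6.14 to 6.73 across the arrays) and midgut digestive genes (4.39 to 5.57) also averaged above the array medians. In RNA of several tissues, fewer tubule cells, less RNA per tubule cell and a change of the same gene in another tissue cannot be told apart.

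**Figure D1:**
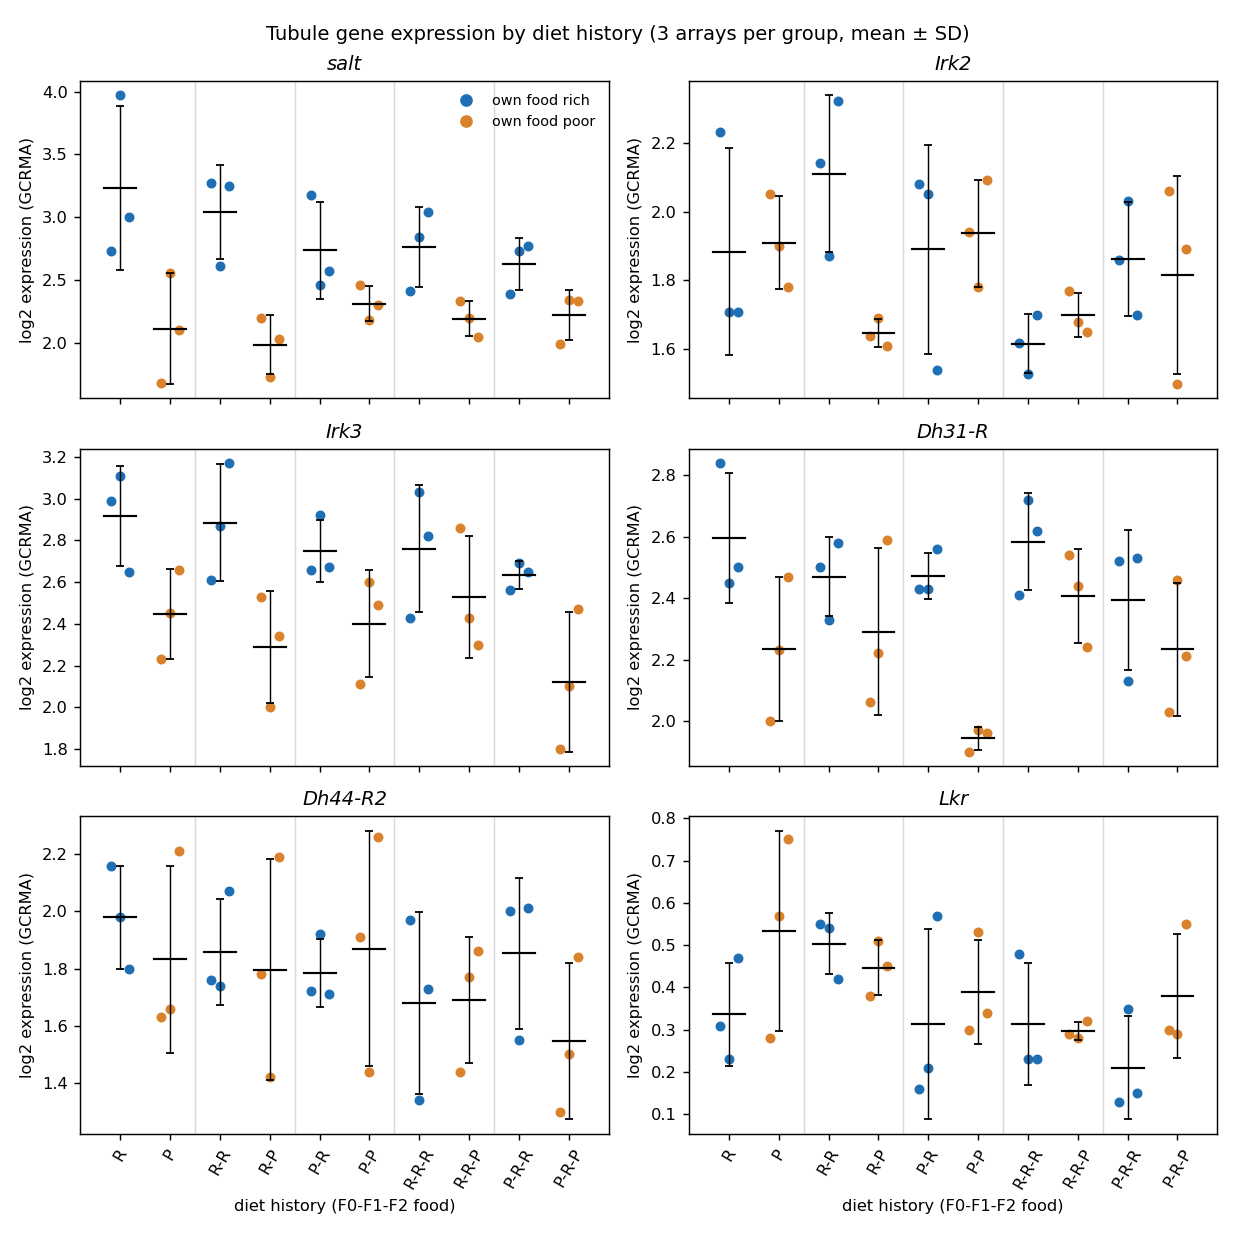
Expression of the 6 measured genes (log2, y axis; each panel has its own scale) in the 10 diet histories (x axis), with 1 point per array, blue for flies raised rich and orange for flies raised poor, and black bars for the mean ± SD of 3 arrays. In the salt panel 12 of the 15 rich-raised arrays sit above the highest poor-raised array, while the colours mix in the Irk2, Dh44-R2 and Lkr panels.

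The first question was whether these genes follow the food on which the flies themselves developed. On average over the 5 pairs of groups that differ only in own food, 3 of the 6 genes fell after poor food and none rose: salt (a transporter), Irk3 (a potassium channel) and Dh31-R (a hormone receptor). The difference, poor minus rich, was -0.72 ± 0.12 (SE) for salt (limma, adjusted p = 0.000364), which is 1.64-fold lower if the values are base-2 logarithms. It was -0.43 ± 0.09 for Irk3 (adjusted p = 0.00518) and -0.28 ± 0.07 for Dh31-R (adjusted p = 0.0242). Of all 15309 probe sets, 1.84 percent were called in this comparison in either direction and 0.98 percent were called lower. The 6 genes had a median difference of -0.18, against -0.01 over all probe sets. They were chosen with earlier results of these data known, so these shares and medians are descriptions and no independent test.

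The other 3 genes did not pass. Irk2 differed by -0.07 (95% interval -0.22 to 0.08), Dh44-R2 by -0.08 (-0.28 to 0.12) and Lkr by 0.07 (-0.04 to 0.19), with adjusted p from 0.761 to 0.872. Irk2 was at -0.01 ± 0.08 without the 4 arrays that stood apart and at 0.03 ± 0.08 when the F1 pair of rich-raised parents was left out of the average (4 pairs). Whether these genes differ from the 3 that passed was not itself tested.

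**Figure D2:**
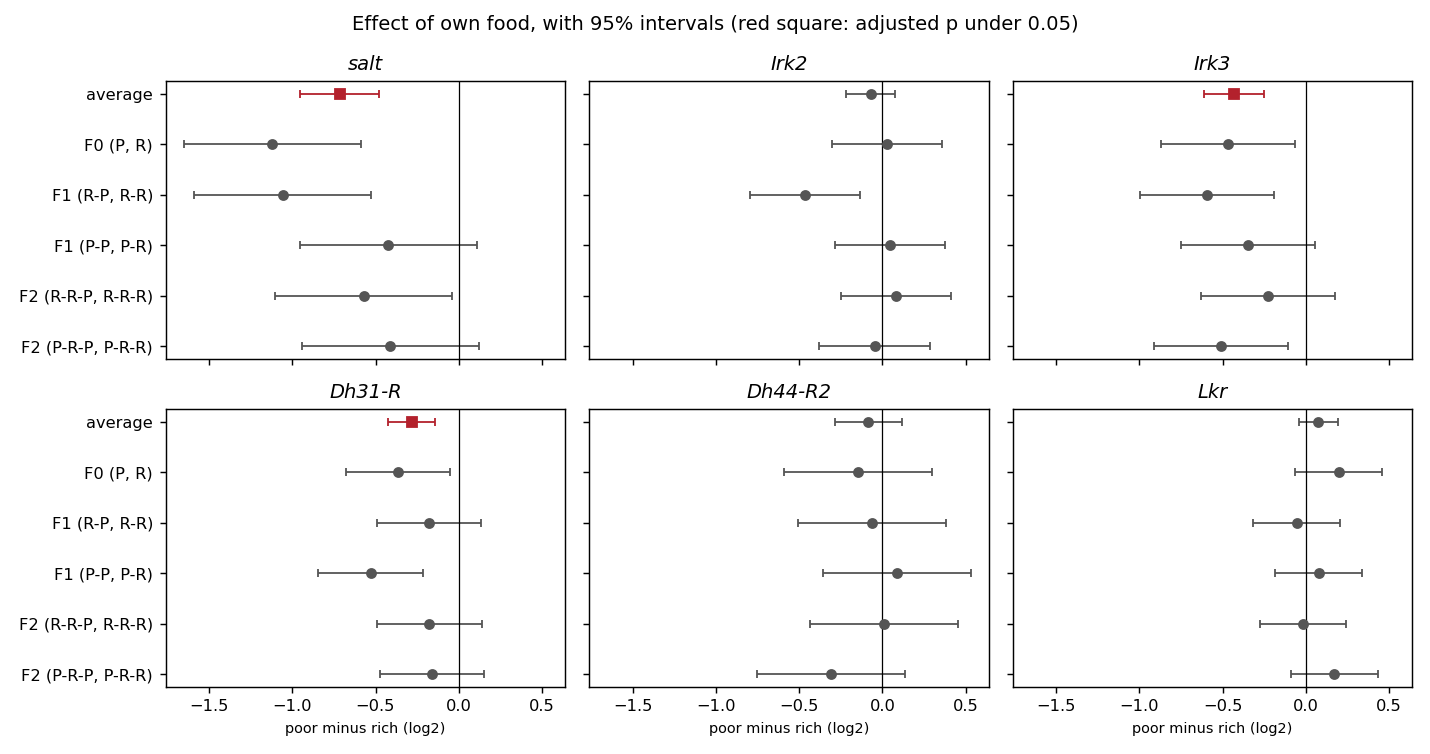
Difference between poor-raised and rich-raised flies (log2, x axis) for each gene, on average and in each of the 5 pairs of groups (y axis), with 95% intervals of the model. The averages of salt, Irk3 and Dh31-R are the values called, and all 5 pairs of these genes lie to the left of 0.

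The gene salt (also known as salty dog) encodes a sodium-coupled transporter of the SLC5 family that is associated with the response to salt stress. In F0 it read 2.73, 3.97 and 3.0 on the R arrays and 1.68, 2.56 and 2.10 on the P arrays. In F1 flies of rich-raised parents it read 3.27, 2.61 and 3.25 in R-R and 2.20, 1.73 and 2.03 in R-P. In each of these 2 pairs every poor-raised array lay below every rich-raised one.

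With poor-raised parents salt read 3.18, 2.46 and 2.57 in P-R and 2.46, 2.18 and 2.30 in P-P. Here the lowest rich-raised value equalled the highest poor-raised one, so the groups touched. The F2 values were 2.41, 2.84 and 3.04 in R-R-R against 2.33, 2.20 and 2.05 in R-R-P, and 2.39, 2.73 and 2.77 in P-R-R against 1.99, 2.34 and 2.33 in P-R-P. Both F2 pairs were separate again, by narrow margins.

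The salt differences were -1.12 ± 0.26 in F0, -1.06 ± 0.26 in R-P against R-R, -0.42 ± 0.26 in P-P against P-R, -0.57 ± 0.26 in R-R-P against R-R-R and -0.41 ± 0.26 in the F2 pair of poor-raised grandparents. No pair passed on its own (limma adjusted p from 0.0573 to 0.998). Poor-raised arrays lay below rich-raised ones without overlap in 4 of the 5 pairs, which held for 0.353 percent of all probe sets in at least 4 pairs. Over all 30 arrays, 13 of the 15 poor-raised arrays read below the lowest rich-raised one (2.39). The share of all probe sets with such a count was not computed, and the count restates the values that called the gene.

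Single arrays moved the salt values within pairs. The highest of the 30 readings, 3.97, belongs to replicate 2 of R. Without it the F0 difference was -0.75. Without replicates 1 and 3 of R-R, and so with 1 array left in that group, the difference between R-P and R-R was -0.62 ± 0.36. The average over pairs held without any single array (-0.77 to -0.64, adjusted p at most 0.00097) and without the 4 arrays that stood apart (-0.59 ± 0.13, adjusted p = 0.0149).

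Irk3 encodes an inward-rectifier potassium channel known for its expression in tubules. In F0 it read 2.99, 3.11 and 2.65 in R and 2.23, 2.45 and 2.66 in P, which overlap narrowly. In F1 flies of rich-raised parents it read 2.61, 2.87 and 3.17 in R-R and 2.53, 2.0 and 2.34 in R-P, and with poor-raised parents 2.66, 2.92 and 2.67 in P-R and 2.11, 2.60 and 2.49 in P-P. Both F1 pairs were separate.

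In F2, Irk3 read 2.43, 3.03 and 2.82 in R-R-R and 2.86, 2.43 and 2.30 in R-R-P, an overlapping pair. It read 2.56, 2.69 and 2.65 in P-R-R and 1.80, 2.10 and 2.47 in P-R-P, where all poor-raised arrays were lower. P-R-P held the lowest Irk3 value of the 30 arrays.

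The Irk3 differences were -0.47 ± 0.20 in F0, -0.59 ± 0.20 and -0.35 ± 0.20 in the F1 pairs of rich-raised and poor-raised parents, and -0.23 ± 0.20 and -0.51 ± 0.20 in the F2 pairs of rich-raised and poor-raised grandparents. Without overlap it was lower in 3 of 5 pairs, as were 0.777 percent of all probe sets in at least 3. The average over pairs was -0.40 to -0.47 without any single array, and -0.39 ± 0.10 without the 4 arrays that stood apart (adjusted p = 0.0375).

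Dh31-R encodes the receptor of the calcitonin-like diuretic hormone Dh31. It read 2.84, 2.45 and 2.50 in R against 2.0, 2.23 and 2.47 in P, and 2.50, 2.33 and 2.58 in R-R against 2.06, 2.22 and 2.59 in R-P. Both of these pairs overlapped. The clearest pair was F1 of poor-raised parents, at 2.43, 2.43 and 2.56 in P-R against 1.90, 1.97 and 1.96 in P-P.

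The 3 P-P arrays were the 3 lowest Dh31-R readings of all 30 arrays. In F2 the gene read 2.41, 2.72 and 2.62 in R-R-R against 2.54, 2.44 and 2.24 in R-R-P, and 2.52, 2.13 and 2.53 in P-R-R against 2.03, 2.46 and 2.21 in P-R-P. Both F2 pairs overlapped.

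The Dh31-R differences were -0.36 ± 0.15 in F0, -0.18 ± 0.15 and -0.53 ± 0.15 in the F1 pairs of rich-raised and poor-raised parents, and -0.18 ± 0.15 and -0.16 ± 0.15 in the F2 pairs of rich-raised and poor-raised grandparents. Dh31-R had the highest adjusted p of the 3 calls. Without replicates 1 and 3 of R-R the average was -0.25 ± 0.08 and no longer passed (adjusted p = 0.142), and it did not pass after quantile normalization (-0.26 ± 0.07, adjusted p = 0.0568).

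All 3 genes were lower after poor food in 5 of 5 pairs, as were 4.55 percent of all probe sets. The average that called these genes is made of the same 5 differences, so their signs and separate pairs are no added support. The genes that did not pass had mixed signs. Irk2, for another inward-rectifier potassium channel, was lower in 2 pairs and higher in 3, from -0.46 to 0.08. Its lowest difference, in R-P against R-R, came with separate groups: 2.14, 1.87 and 2.32 in R-R and 1.64, 1.69 and 1.61 in R-P. Without replicates 1 and 3 of R-R that difference was -0.22 ± 0.23.

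Dh44-R2 encodes a receptor of Dh44, the corticotropin-releasing-factor-like diuretic hormone, and was lower in 3 pairs and higher in 2, from -0.31 to 0.09. Its SD within groups was 0.28. Lkr was lower in 2 pairs and higher in 3, from -0.06 to 0.20, and its group means lay between 0.21 and 0.53. It read below the array median on all 30 arrays, and whether it was detected at all was not tested. No pair of Dh44-R2 or Lkr was free of overlap.

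Taken pair by pair, limma called 0 of the 6 genes in each of the 5 own-food comparisons. In F0, 3 genes (salt, Irk3 and Dh31-R) had an unadjusted p under 0.05, where 0.183 percent of all probe sets were called and 6.25 percent had such a p. In R-P against R-R, 3 genes (salt, Irk2 and Irk3) did, against 0.601 percent called and 8.93 percent with such a p. In P-P against P-R, Dh31-R did, against 0.0523 and 4.38 percent. Salt did in R-R-P against R-R-R (0.0588 and 7.75 percent of all probe sets) and Irk3 in the other F2 pair (0.0719 and 8.82 percent). Poor-raised arrays lay below rich-raised ones without overlap for 1 of the 6 genes in F0, 3 in R-P against R-R, 2 in P-P against P-R, and 1 and 2 in the F2 pairs of rich-raised and poor-raised grandparents. Over all probe sets this held for 6.06, 7.62, 5.09, 5.43 and 5.55 percent. Without R replicate 1 the F0 difference of Dh31-R was -0.24.

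Whether the own-food difference varied among the 5 pairs was tested directly with an F test of 4 degrees of freedom. None of the 6 genes was called and none had an unadjusted p under 0.05. The smallest unadjusted p was 0.134, for Irk2, and salt had 0.16. Of all probe sets 0.0392 percent were called and 6 percent had an unadjusted p under 0.05. For salt, whose difference ranged from -1.12 to -0.41, this test did not separate the pairs from each other.

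The order of the 10 group means put R highest for salt (3.23), Irk3 (2.92), Dh31-R (2.60) and Dh44-R2 (1.98), R-R highest for Irk2 (2.11) and P highest for Lkr (0.53). Lowest were R-P for salt (1.99), P-P for Dh31-R (1.94), P-R-P for Irk3 (2.12) and Dh44-R2 (1.55), R-R-R for Irk2 (1.62) and P-R-R for Lkr (0.21). All 5 rich-raised group means lay above all 5 poor-raised ones for salt (2.63 to 3.23 against 1.99 to 2.31) and for Irk3 (2.63 to 2.92 against 2.12 to 2.53). For Dh31-R the ranges overlapped, at 2.39 to 2.60 against 1.94 to 2.41. The share of all probe sets with separate ranges of group means was not computed. These ranges use the values that called the genes, so they are no added support. No neighbours in any of these 6 orders differed by more than 2 standard errors of a difference. The largest step of salt was 0.32, between P-R-R and P-P, and that of Dh31-R was 0.29, between P-R-P and P-P. An F test over the 10 groups called 1 of the 6 genes, salt (adjusted p = 0.0482), where 0.882 percent of all probe sets were called. This call was lost when any of 24 of the 30 arrays was left out. It held only without replicate 1 of R, P-R, R-R-R or P-R-R, or replicate 2 of P or R-R.

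The second question was whether the parents' food left a mark in F1 flies. Poor minus rich parents on average gave differences between -0.17 (Dh31-R) and 0.04 (Irk2), with 0 of 6 genes called in limma and 0 with an unadjusted p under 0.05 (0.0196 and 6.77 percent of all probe sets). For salt the average was 0.01, with a 95% interval from -0.37 to 0.39. Without replicates 1 and 3 of R-R it was 0.23 ± 0.22, and that of Irk2 was 0.16 ± 0.14. In rich-raised F1 flies, P-R against R-R, 0 genes were called and 0 had an unadjusted p under 0.05 (0.0523 and 5.49 percent), with differences from -0.31 (salt) to 0.00 (Dh31-R). Without replicates 1 and 3 of R-R the values turned to 0.13 ± 0.36 for salt and 0.02 ± 0.23 for Irk2, which had been -0.22.

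In poor-raised F1 flies, P-P against R-P, Dh31-R differed by -0.35 ± 0.15, with an unadjusted p of 0.0315 and an adjusted p of 0.758. All 3 P-P arrays lay below all 3 R-P arrays for this gene. Of the 6 genes 0 were called and 1 had an unadjusted p under 0.05, against 0.0131 and 6.58 percent of all probe sets. Irk2 differed by 0.29 ± 0.16 in this comparison (adjusted p = 0.818), and its groups did not overlap either. These 2 of 6 genes compare with 10.5 percent of all probe sets whose groups did not overlap here. Without R-P replicate 3 the Dh31-R difference was -0.20. The F1 interaction, the own-food difference under poor-raised parents minus that under rich-raised ones, was 0.63 ± 0.37 for salt, 0.51 ± 0.23 for Irk2 and -0.35 ± 0.22 for Dh31-R. Limma called 0 of 6 genes, and Irk2 alone had an unadjusted p under 0.05 (0.0342), where 0.00653 percent of all probe sets were called and 4.87 percent had such a p. Without replicates 1 and 3 of R-R the salt interaction was 0.20 ± 0.44 and that of Irk2 0.27 ± 0.28. Without P-R replicate 3 alone that of Irk2 was 0.34, and without R-P replicate 3 that of Dh31-R was -0.20.

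The third question was the same for grandparents. Poor minus rich grandparents on average in F2 gave -0.27 ± 0.14 for Irk3, -0.18 ± 0.11 for Dh31-R, -0.05 ± 0.18 for salt and 0.18 ± 0.11 for Irk2. Dh44-R2 and Lkr differed by 0.02 and -0.01. Limma called 0 of 6 genes and 0 had an unadjusted p under 0.05, against 0 percent called and 5.51 percent with such a p over all probe sets. In rich-raised F2 flies, P-R-R against R-R-R, 0 genes were called and 0 had an unadjusted p under 0.05 (0 and 8.57 percent of all probe sets).

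In poor-raised F2 flies, P-R-P against R-R-P, Irk3 differed by -0.41 ± 0.20 (unadjusted p = 0.0477, adjusted p = 0.967), and its arrays overlapped. Without R-R-P replicate 1 the difference was -0.24. It was the 1 gene of 6 with an unadjusted p under 0.05, and 0 were called (5.13 and 0 percent of all probe sets). The F2 interactions ran from -0.32 for Dh44-R2 to 0.19 for Lkr, with 0 of 6 genes called and 0 with an unadjusted p under 0.05 (0 and 7.64 percent). The comparisons of own, parental and grandparental food share arrays, so their values are not independent of each other.

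**Figure D3:**
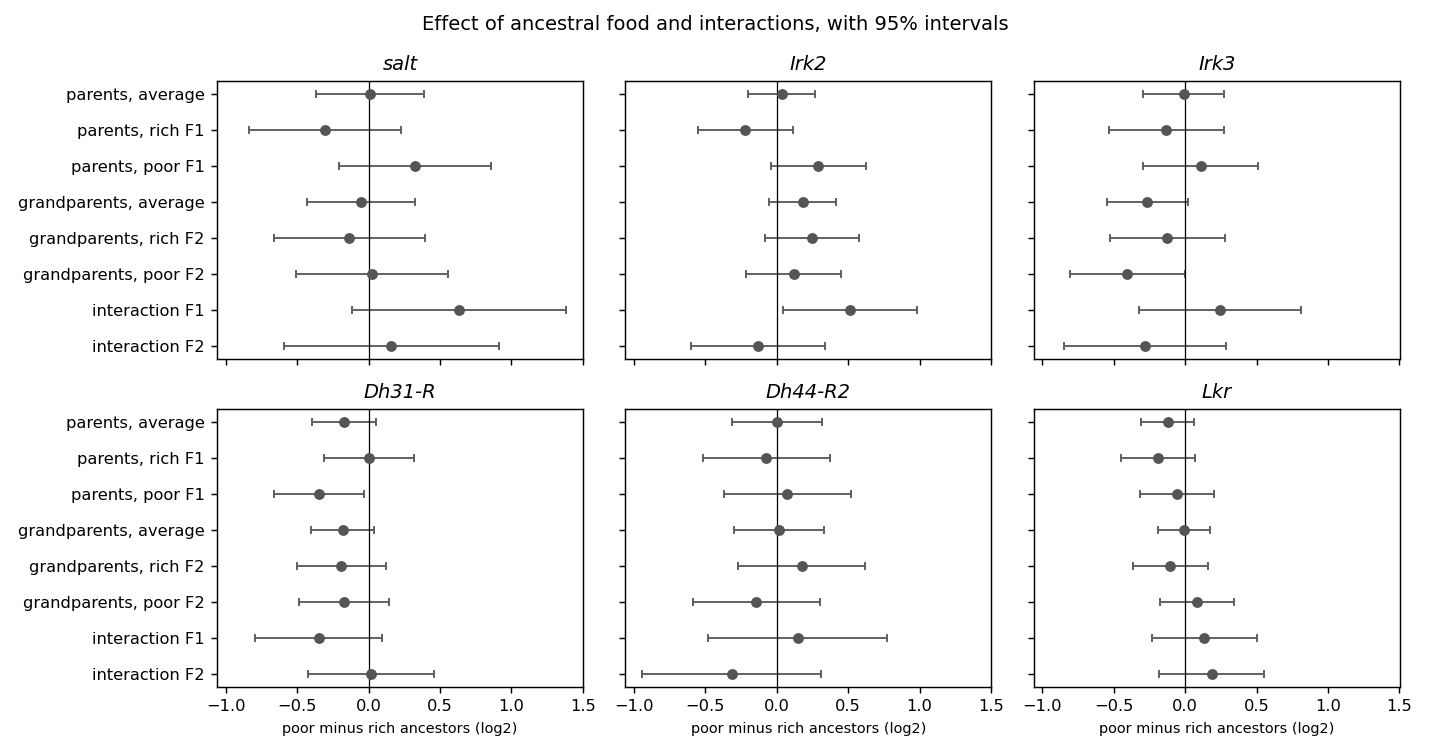
Differences between flies with poor-raised and rich-raised parents or grandparents, and the interactions of own and ancestral food (y axis), on the log2 scale (x axis) with 95% intervals of the model. No value is called, and most intervals include 0, with Dh31-R in poor-raised F1 flies, Irk2 in the F1 interaction and Irk3 in poor-raised F2 flies as the exceptions.

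Groups with only rich food in their history were compared across generations. Irk2 read 2.23, 1.71 and 1.71 in R, 2.14, 1.87 and 2.32 in R-R and 1.62, 1.53 and 1.70 in R-R-R. All R-R-R values lay below all R-R values, a separation found for 1 of the 6 genes and, in either direction, for 10.8 percent of all probe sets. The F test over the 3 groups gave an unadjusted p of 0.0183 for Irk2 and an adjusted p of 0.561. It called 0 of 6 genes, and Irk2 was the 1 with an unadjusted p under 0.05 (0.00653 and 7.48 percent of all probe sets). Without replicates 1 and 3 of R-R, 2 of the arrays that stood apart, the unadjusted p for Irk2 was 0.23. Generation cannot be told apart here from whatever else differed between the times at which the generations were reared, which the labels do not give.

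Other genes of renal function were taken from 9 lists by role, and of their 126 measured genes 0 passed for own food on average in limma. The lists were made with earlier results of these data known, and the list genes named below were chosen after their values were seen. Of 17 V-ATPase subunit genes, which encode the pump that energises secretion, 16 had a lower mean after poor food and 5 had an unadjusted p under 0.05, all lower, against 5.1 percent of all probe sets that were lower with such a p. Over all probe sets 52.7 percent had a lower mean. The list median was -0.08, against -0.01 over all probe sets, and the differences ran from -0.20 to 0.04. The pairs were unlike: 16 of the 17 were lower in F0 (median -0.23), 15 in R-P against R-R (-0.19) and 12 in P-P against P-R (-0.09). In F2, 9 were lower with rich-raised grandparents (median -0.01) and 7 with poor-raised ones (median 0.07). In the same order of pairs, 52.7, 53.2, 49.2, 45.6 and 52.3 percent of all probe sets were lower. The labels name no tissue, so the V-ATPase values cannot be assigned to the tubules. Whether the list's shift differed between generations was not tested. The subunit gene VhaSFD differed by -0.20 ± 0.07 (adjusted p = 0.18) and was lower in 5 of 5 pairs, from -0.51 in F0 to -0.04 in R-R-P against R-R-R.

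Of 24 other ion transport genes, 15 had a higher and 9 a lower mean, with a median of 0.01. An unadjusted p under 0.05 was found for 4 of them, and for 1562 of all 15309 probe sets. Among the 4 with an unadjusted p under 0.05 were all 3 nervana genes, which encode beta subunits of the sodium pump: nrv2 at 0.20 ± 0.08, nrv3 at 0.17 ± 0.07 and nrv1 at 0.10 ± 0.04, with adjusted p from 0.302 to 0.396. The fourth was the chloride channel gene Best2 (-0.15 ± 0.07). Of 12 other genes of the SLC5 family, to which salt belongs, 7 were higher and 5 lower, between -0.05 and 0.15, and 0 had an unadjusted p under 0.05. The 4 measured water channel genes lay between -0.08 and 0.13.

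Of 22 organic solute transporter genes, 5 had an unadjusted p under 0.05, 3 of them higher. Over all 15309 probe sets, 1562 had such a p in either direction. The organic anion transporter genes Oatp58Db (0.35 ± 0.10, adjusted p = 0.0822) and Oatp33Eb (-0.35 ± 0.11, adjusted p = 0.146) kept their sign in 5 of 5 pairs and differed in opposite directions. Of 18 purine metabolism genes, 12 had a lower mean and 5 of these an unadjusted p under 0.05 (5.1 percent of all probe sets were lower with such a p). They include Adss (-0.24 ± 0.07, adjusted p = 0.0503) and Adsl (-0.38 ± 0.15, adjusted p = 0.289), for the enzymes that make AMP from IMP, and Gart (-0.37 ± 0.16) and Pfas (-0.22 ± 0.07), for enzymes of purine synthesis. These genes act in many tissues.

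The list of peptides and other receptors (10 genes, median 0.00) holds the hormone genes themselves. Capa differed by -0.13 ± 0.06 and Lk by -0.12 ± 0.06, with mean levels of 0.54 and 0.81 and adjusted p of 0.421 and 0.464. Of 13 second messenger genes 0 had an unadjusted p under 0.05. Of the 6 tubule identity genes Alp4 alone did, at -0.19 ± 0.08 (adjusted p = 0.33), and the list median was -0.02. Alp4 was lower in 5 of 5 pairs, from -0.48 in R-P against R-R to -0.05 in R-R-P against R-R-R. Of all probe sets 4.55 percent were lower in 5 of 5 pairs. Whether the amount of tubule RNA changed with own food was not tested. No gene of these lists was called in any of the 13 other comparisons.

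**Figure D4:**
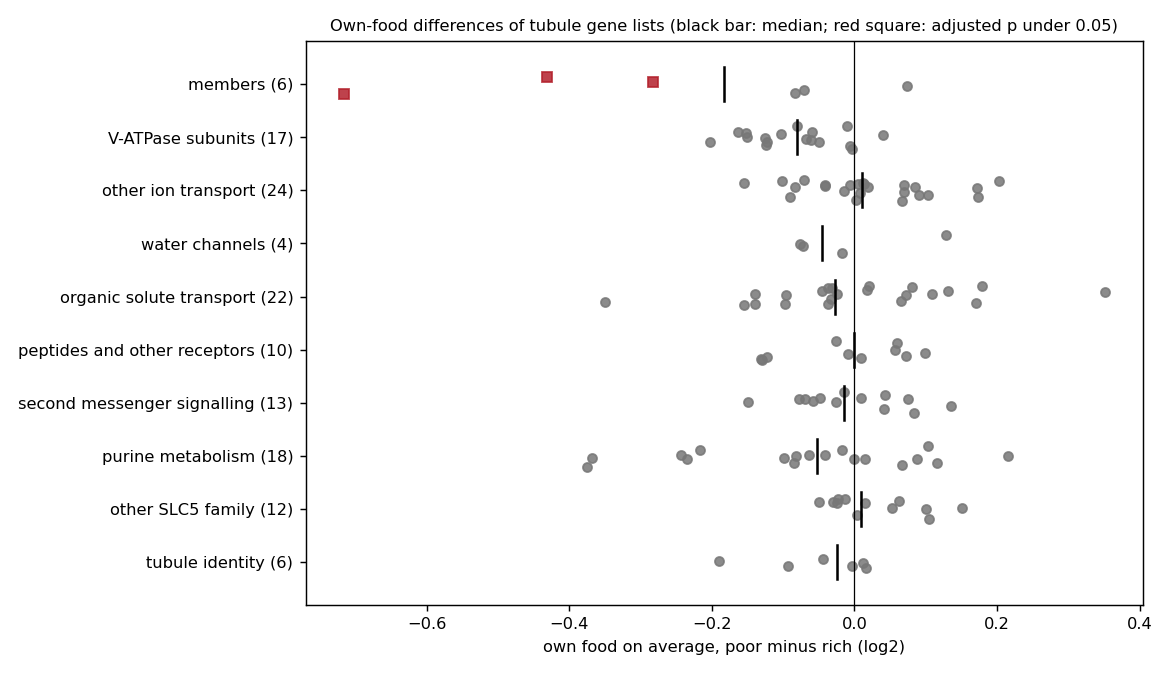
Own-food difference on average (log2, poor minus rich, x axis) of each measured gene in the lists of renal function (y axis, number of genes in brackets), with black bars for list medians. The 3 values called are salt, Irk3 and Dh31-R, and the V-ATPase genes lie between -0.20 and 0.04.

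Markers of other tissues moved with own food too. All 9 cuticle genes rose after poor food (median 0.84), in a list chosen with their rise in these data already known. The list mean lay between 1.84 and 4.18 on rich-raised arrays and between 2.88 and 4.73 on poor-raised ones. Of 4 muscle genes 1 rose and all 4 had a higher mean (median 0.40), with list means of 5.44 to 6.68 on rich-raised and 6.18 to 6.88 on poor-raised arrays. All 9 testis genes had a lower mean (median -0.09) and 0 were called, with 1 at an unadjusted p under 0.05. The part of these shifts in the values of salt, Irk3 and Dh31-R was not tested. Of 6 neuron genes 3 had a higher and 3 a lower mean, and 0 were called. Of 3 fat body genes 1 rose, of 12 midgut genes 2 rose and 1 fell, and of 8 accessory gland genes 1 rose. None of 19 ovary and yolk genes was called. Over all probe sets 1.84 percent were called for own food on average and 52.7 percent had a lower mean. An unadjusted p under 0.05 with a lower mean was found for 5.1 percent.

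The 2 arrays with ovary transcripts read 1.73 and 2.73 for salt and 2.0 and 2.69 for Irk3, within the ranges of the other 28. Their Dh31-R values were 2.22 and 2.13, also within that range. Without these 2 arrays the average own-food differences were -0.68 ± 0.12, -0.40 ± 0.09 and -0.30 ± 0.07, and all 3 genes passed. Water channel genes averaged 1.51 and 1.56 on the 2 arrays and 1.03 to 1.29 on the others.

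Among the 15 pairs of the 6 genes, salt and Irk3 varied most alike over the 30 arrays (Pearson r = 0.69, Spearman rho = 0.71), followed by Irk3 with Dh31-R (0.59 and 0.56) and salt with Dh31-R (0.46 and 0.48). The other 12 pairs had r between -0.20 and 0.28. These values are descriptions without a test, since the 3 genes share the shift with own food. Within the 15 rich-raised arrays r was 0.47 for salt with Irk3, 0.36 for Irk3 with Dh31-R and 0.06 for salt with Dh31-R. Within the 15 poor-raised arrays it was 0.38, 0.31 and 0.05.

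**Figure D5:**
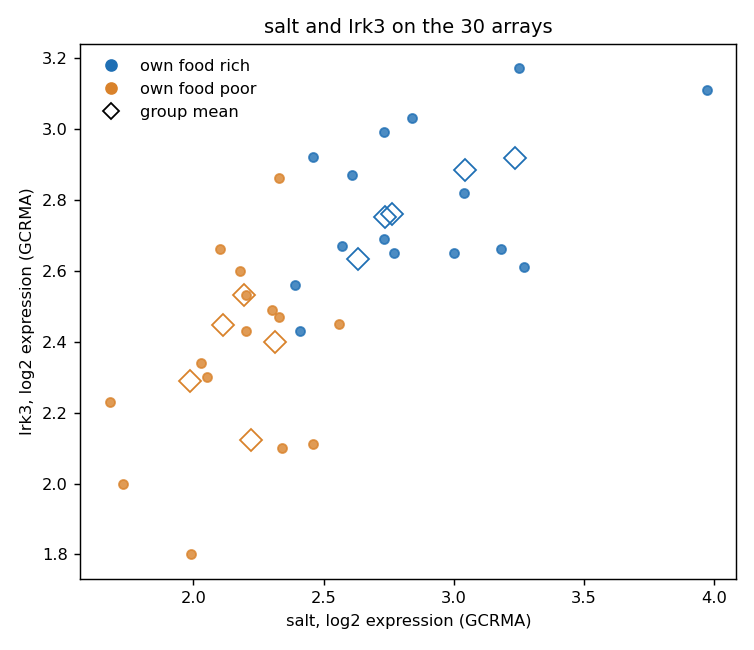
Expression of salt (x axis) and Irk3 (y axis), both log2, on the 30 arrays (points) and as means of the 10 groups (open diamonds), blue for rich-raised and orange for poor-raised flies. The rich-raised group means lie up and to the right of the poor-raised ones, while within each colour r is 0.47 and 0.38.

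For each gene the 3 most similar genes were sought by Pearson r over the 30 arrays, among other genes with a range of at least 1 over arrays. They were picked as the highest of 4654 or 4655 candidates, so their r values are high by selection and are descriptions without a test. For salt these were Arc1, which encodes a capsid-forming protein, at r = 0.78, the sugar transporter-like gene CG3285 at 0.75 and the aldehyde oxidase gene AOX1 at 0.75. Over the 10 group means r was 0.94, 0.94 and 0.90. All 3 fell with own poor food on average, by 1.53, 1.27 and 1.58. For Irk3 they were CG13659 (0.73), Arc1 (0.72) and salt itself (0.69). For Dh31-R they were the globin gene glob1 (0.67), CG31677 (0.66) and the lysyl hydroxylase gene Plod (0.65).

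The genes most like Dh44-R2 were CG12992 (0.69), Recs1 (0.69) and CG12506 (0.63). Within groups their r was 0.66 to 0.71, on the same arrays by which they were picked. For Irk2 and Lkr the highest r were 0.61 (CG5011) and 0.53 (CG12862). With the group means removed, r between salt and Arc1 was 0.34, and between salt and CG3285 0.12.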

How the data were processed

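The deposited file holds the authors' log2-scale values, 1 for each probe set on each array. The submitters' processing notes name GCRMA, a method that uses probe sequence to correct background before arrays are normalized and probes summarized. No source used here gives its version or the base of the logarithm, and base 2 was taken as usual for it. With natural logarithms every difference would be 1.44 times larger. Array batches are not given either.

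With 1 mean for each of the 10 groups, the 15309 probe sets of the 30 arrays were modelled in limma 3.58.1 in R 4.3.3 (lmFit, eBayes, no covariate, no filter), with Benjamini-Hochberg adjustment over all probe sets of each comparison. Adjusted p under 0.05 counts as called. There were 14 contrasts and 3 F tests. The procedure was also run on simulated data with known changes and independent noise, which hold no arrays that stand apart. Of the probe sets, 13441 had 1 gene symbol, 555 several and 1313 none. A gene with several probe sets entered a list by the one with the highest mean. The closest 2 arrays differed by 0.179 on average, so no array duplicates another. The number of arrays, 3 per group, limits precision. The rule named the 6 genes always and list genes only where called. None was called in the renal lists, so those named there were chosen after their values were seen. The members and lists were chosen with earlier results of these data known. No sequences or coordinates are given, since no genome or sequence table was used here.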

Additional observations from a re-analysis of the deposited data

How the results depend on the processing

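The own-food averages of salt and Irk3 kept their direction and passed in all 10 alternatives and without each of the 30 arrays. Salt ranged from -0.72 to -0.59 and Irk3 from -0.43 to -0.39 over the 10 alternatives. Irk3 passed most narrowly when the F1 pair of rich-raised parents was left out of the average (limma adjusted p = 0.0496). Dh31-R kept its direction (-0.31 to -0.25) but passed in 7 of 10, failing after quantile normalization, without replicates 1 and 3 of R-R, and without the 4 arrays that stood apart (adjusted p = 0.0995). Replicate numbers did not pair the samples: deviations of same-numbered arrays in the 5 own-food pairs correlated between -0.10 and 0.11, and 12 of 30 arrays correlated best with their own number. With the replicate block salt was -0.72 ± 0.12 (adjusted p = 0.000645), 3 of 6 genes were called for own food on average, and 300 probe sets against 281. Limma's own-food counts in single pairs rose from 0 to 1 gene, salt, when only probe sets with a mean of at least 2 were tested (fewer tests) in F0 (adjusted p = 0.0389) and in R-P against R-R (0.0244), and with trended robust spread in the latter (0.0395). They ranged from 0 to 1 without single arrays: 1 in F0 without replicate 1 of R or replicate 2 of P, and 1 in R-P against R-R without replicate 2 of R-R. The call of salt over the 10 groups ended (0 genes) after quantile normalization, with the replicate block, and without the arrays that stood apart, together or by kind. It ranged from 0 to 1 gene over single arrays left out, with 0 in 24 of 30. Without the 4 arrays that stood apart, differences of R-P against R-R moved to -0.50 ± 0.38 for salt and 0.25 ± 0.30 for Dh44-R2, and that of Dh31-R to about 0 (± 0.23). The own-food calls over all probe sets split 131 higher to 150 lower, and 166 to 152 after quantile normalization. The causes were not tested. Counts of called members in the other comparisons were the same or within 1.5 times. Calls over all probe sets, on which the percentages rest, moved by more in every comparison but grandparental food in poor-raised F2 (0 throughout). For own food they were 281 on average (150 with the 4 other pairs to 334 with array weights), 28 in F0 (17 to 35), 92 in R-P against R-R (15 without replicates 1 and 3 of R-R to 101), 8 in P-P against P-R (7 to 19), and 9 (2 to 42) and 11 (2 to 14) in the F2 pairs of rich-raised and poor-raised grandparents. Those for parental food, 3 on average, 8 in rich-raised and 2 in poor-raised flies, ranged over 0 to 6, 0 to 18 and 0 to 3. Those for grandparental food on average and in rich-raised F2 were 0 and reached 1 and 6. The interactions had 1 (0 to 7) in F1 and 0 (0 to 2) in F2, the F tests 6 (1 to 8) among pairs, 1 (0 to 1) across generations and 135 (86 to 167) over the 10 groups. Fits with only the groups compared equal the fit itself where a comparison uses all 10 groups.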
